A study of Mus musculus with 12 samples.

Results

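The genes described here encode the subunits of the 5 complexes of oxidative phosphorylation, split by the genome that carries them. Members were the rows of the deposited expression table whose symbol marks a subunit of complex I (Nduf followed by a, b, c, s or v and a number), complex II (Sdha to Sdhd), complex III (Uqcr), complex IV (Cox4 to Cox8 with an isoform letter) or complex V (Atp5), or a protein-coding gene of mitochondrial DNA, without pseudogenes. This gave 94 of 50978 rows, 81 encoded in the nucleus and 13 in the mitochondrion. The nuclear members numbered 37 for complex I, 4 for complex II, 8 for complex III, 16 for complex IV and 16 for complex V, and the mitochondrial members 7, 0, 1, 3 and 2 in the same order. Complexes were assigned by symbol throughout. Ndufa4, now known as a subunit of cytochrome c oxidase, is therefore counted under complex I.

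Complexes I to IV of the inner mitochondrial membrane pass electrons from NADH and succinate to oxygen. Complexes I, III and IV pump protons as they do so, and complex V, the ATP synthase, uses the proton gradient to make ATP. The nuclear subunits are made in the cytosol and imported. The 13 mitochondrial ones are made inside the organelle from long transcripts of both DNA strands. Complex II holds nuclear subunits alone. Mouse ESCs draw much of their ATP from glycolysis but keep both sets of subunits expressed, and the nuclear factors NRF1, GABPA and YY1 are known activators of many of the nuclear genes.

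RNA had been sequenced from E14 mouse ESCs grown in serum with LIF, with 2 libraries for each of 3 lines, made from separate dishes according to the labels, fewer than the triplicates that the methods describe. The lines were the parental ESCs (ESC), ESCs with HA- and FLAG-tagged wild-type PRAMEL7 (ESC + H/F-PRAMEL7_WT) and ESCs with the same protein lacking part of its N-terminus (ESC + H/F-PRAMEL7_ΔN), the deletion being stated with different lengths in the labels and the methods. PRAMEL7 is a protein of the inner cell mass that works with the CUL2 ubiquitin ligase. In both derived lines 1 copy of the transgene had been placed in Rosa26 under the constitutive CAG promoter with Cas9, followed by puromycin selection and cloning from single cells, which the parental cells had not undergone. An effect of the transgene and a difference between clones therefore cannot be told apart, and p-values measure the spread between dishes of a line. Total reads on genes were 18260932 to 19862009 per library. Pramel7 itself was at 0.258 and 0.217 CPM (the reads of a gene scaled to the depth of its library) in ESC, at 51.2 and 46.2 CPM in ESC + H/F-PRAMEL7_WT, and at 398 and 431 CPM in ESC + H/F-PRAMEL7_ΔN. Between the derived lines the deletion, the level of Pramel7 RNA and the clone therefore cannot be told apart. Markers fixed for ESCs (10 genes, among them Pou5f1, Sox2 and Nanog) summed to 5435 to 6670 CPM in the 6 libraries, with 1 called higher and 4 lower in ESC + H/F-PRAMEL7_WT than in ESC, 1 and 0 in ESC + H/F-PRAMEL7_ΔN than in ESC, and 0 and 5 in ESC + H/F-PRAMEL7_WT than in ESC + H/F-PRAMEL7_ΔN. Those of 2-cell-like cells summed to at most 0.271 CPM, with 4 of 7 listed at 0 throughout. Trophectoderm markers (8 genes, 5 tested) summed to 91.0 ± 9.85 CPM (SD, n = 2) in ESC, 75.6 and 76.2 in ESC + H/F-PRAMEL7_WT and 169 and 175 in ESC + H/F-PRAMEL7_ΔN. All 5 were called higher in ESC + H/F-PRAMEL7_ΔN than in ESC, while 0 were called higher and 2 lower in ESC + H/F-PRAMEL7_WT. Primitive endoderm markers summed to 280 and 310 CPM in ESC, 316 and 328 in ESC + H/F-PRAMEL7_WT and 313 and 340 in ESC + H/F-PRAMEL7_ΔN, with 3 of 6 called higher and 1 lower in the former and 2 and 1 in the latter. Fibroblast markers summed to 25.1 and 26.6 CPM in ESC + H/F-PRAMEL7_WT against 46.8 to 71.4 CPM in the other lines, with Dcn and Lum at 0. All 3 tested were called lower in ESC + H/F-PRAMEL7_WT than in ESC, and 0 in ESC + H/F-PRAMEL7_ΔN. Over all genes tested, 8.71% were called higher and 16.3% lower in ESC + H/F-PRAMEL7_WT than in ESC. The shares were 6.25% and 13.6% in ESC + H/F-PRAMEL7_ΔN, and 10.9% and 9.44% in ESC + H/F-PRAMEL7_WT against ESC + H/F-PRAMEL7_ΔN. In bulk RNA fewer cells of a type and less RNA per cell cannot be told apart, and the part of these other cell types in the results below was not tested.

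The mitochondrial members fell into a measured and an unmeasured set. In every library, mt-Co2, mt-Atp8, mt-Atp6, mt-Co3, mt-Nd3 and mt-Nd4l were listed at 0, while mt-Co1, mt-Nd1, mt-Cytb, mt-Nd2, mt-Nd4, mt-Nd5 and mt-Nd6 were among the more abundant transcripts. The 6 genes at 0 follow one another in the circular genome, from position 7013 (start of mt-Co2) to 10173 (end of mt-Nd4l) of chrM in GRCm38. They encode 2 of the 3 mitochondrial subunits of cytochrome c oxidase, both mitochondrial subunits of the ATP synthase and 2 subunits of complex I. A listed 0 says only that no read was assigned, since mt-Co1 and mt-Nd4 on either side of the stretch were abundant.

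This stretch lies within the longest nuclear copy of mitochondrial DNA in the reference. A search of chrM against the nuclear chromosomes found a block of 4654 bases at chr1:24611535-24616188 that is 99.9% identical to chrM 6390 to 11042, with 2 mismatches and 1 gap. When each member's transcript was cut into windows of 100 bases, the read length, and a copy was counted at 98% identity or more, 100% of the windows of mt-Co2, mt-Atp8, mt-Atp6, mt-Co3 and mt-Nd4l had one, and 98.8% of those of mt-Nd3. The share was 60.8% for mt-Nd4 and 26.6% for mt-Co1, and 0% for mt-Nd1, mt-Nd2, mt-Nd5, mt-Nd6 and mt-Cytb. The rows for the copies themselves held few reads: Gm28661, which lies over the copy of mt-Co2, had 0 to 4 reads in a library, Gm28437 over the copies of mt-Atp6 and mt-Co3 had 2 to 7, and all 9 listed copies together had 9.00 to 24.5 CPM. How the authors treated reads with several matches is not given in the sources used here, and its part in the listed 0 was not tested.

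The following stretches show how alike genes and copies are. The first 60 bases of mt-Co2 (chrM:7013-7072) and of its copy on the minus strand of chromosome 1 (chr1:24615506-24615565) are the same letter for letter, so they hold no capital. For mt-Co1, which was measured, the 60 bases that differ most from its copy on chromosome 2 (chrM:5787-5846 against the minus strand of chr2:22589129-22589188, in a copy that is 97.6% identical over 1545 bases) have 4 differences, shown in capitals.
mt-Co2: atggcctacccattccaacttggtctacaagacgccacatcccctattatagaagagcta
copy of mt-Co2: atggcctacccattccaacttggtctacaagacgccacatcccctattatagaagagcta
mt-Co1: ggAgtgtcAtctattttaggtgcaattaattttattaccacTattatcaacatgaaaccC
copy of mt-Co1: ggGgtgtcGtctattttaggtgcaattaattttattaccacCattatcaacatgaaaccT

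**Figure D1:**
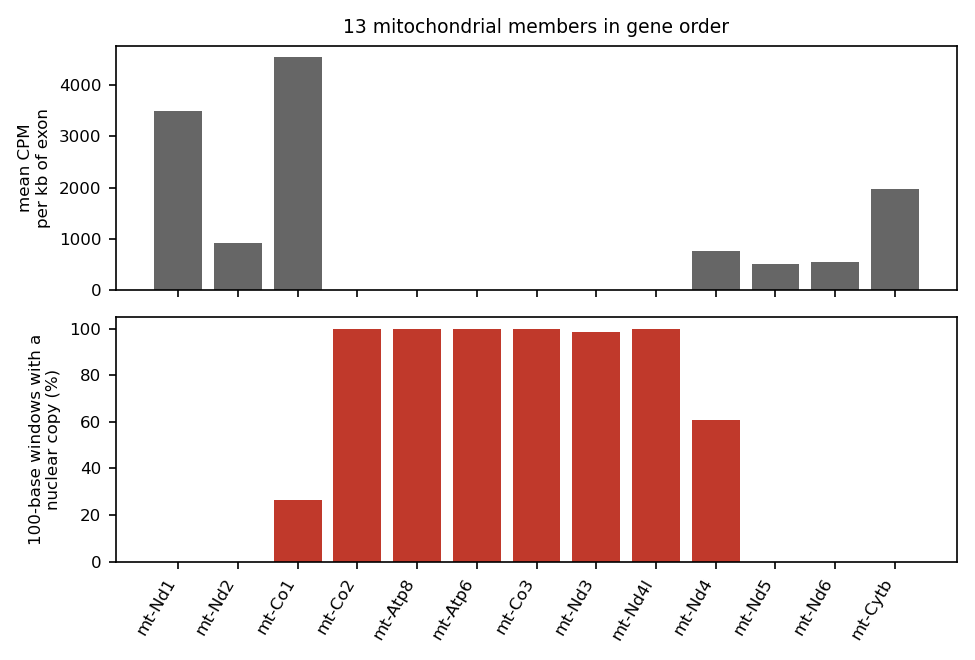
Bars give, for the 13 mitochondrial members in their order on the mitochondrial genome, the mean level over 6 libraries in CPM per kilobase of exon (top) and the percentage of 100-base windows with a nuclear copy of at least 98% identity (bottom). The 6 genes listed at 0 are those with 98.8% to 100% of their windows in a copy, and their neighbours mt-Co1 and mt-Nd4 had 26.6% and 60.8%.

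Levels per kilobase of exon are means over the 6 libraries. Among the mitochondrial members, mt-Co1, the catalytic subunit of cytochrome c oxidase, stood highest at 4549 CPM. It was followed by mt-Nd1 at 3496 and mt-Cytb, the cytochrome b of complex III, at 1976 CPM. mt-Nd2, mt-Nd4, mt-Nd6 and mt-Nd5, all subunits of complex I, stood at 919, 761, 555 and 512 CPM per kilobase. The most abundant nuclear members on this scale were Atp5b and Atp5a1, the catalytic and regulatory subunits of the ATP synthase head, at 721 and 526 CPM per kilobase, with Atp5o left out because its span in the annotation overlaps other loci. The kilobases count all annotated exons of a gene. These were 4237 bases for Atp5b, against 1916 in its transcript used for the search of copies. For mt-Co1 both lengths were 1545 bases. Levels of nuclear and of mitochondrial members are therefore not directly comparable on this scale. The values of mt-Co1 and mt-Nd4 rest on transcripts of which a part has a nuclear copy. mt-Nd6 is carried on the other strand and overlaps the end of mt-Nd5 in the annotation, and without strand in the libraries their shared reads cannot be told apart.

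The sum of the mitochondrial members varied more between dishes than between lines. This sum, its share of reads and its ratio to the nuclear sum rest on the 7 measured members. Any RNA of the members listed at 0 is missing from the sum. It was 24099 and 12071 CPM in ESC, 14177 and 12351 CPM in ESC + H/F-PRAMEL7_WT, and 12763 and 19678 CPM in ESC + H/F-PRAMEL7_ΔN, or 1.22% to 2.39% of the reads on genes. The highest and the lowest library were thus both parental. The nuclear members summed to 14493 and 14091 CPM in ESC, 16380 and 16587 CPM in ESC + H/F-PRAMEL7_WT and 14974 and 15020 CPM in ESC + H/F-PRAMEL7_ΔN. For the nuclear sum all 3 lines stood apart, with ESC + H/F-PRAMEL7_WT 1.15-fold and ESC + H/F-PRAMEL7_ΔN 1.05-fold the parental mean. The mitochondrial sum divided by the nuclear sum was 1.66 and 0.857 in ESC, 0.865 and 0.745 in ESC + H/F-PRAMEL7_WT and 0.852 and 1.31 in ESC + H/F-PRAMEL7_ΔN, and the lines overlapped.

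**Figure D2:**
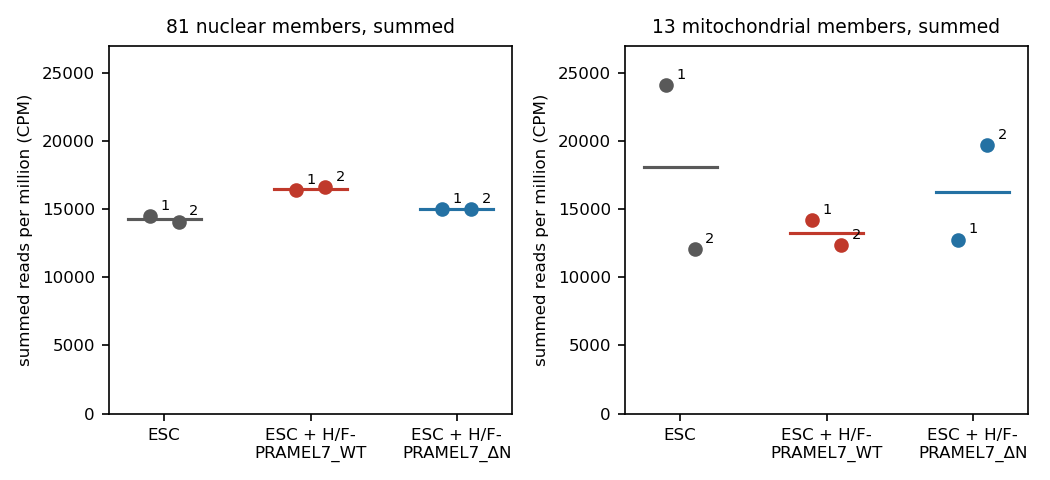
Points are libraries, numbered as in the labels, and lines are the means of the 3 lines, for the summed CPM of the 81 nuclear (left) and the 13 mitochondrial members (right), on the same axis from 0. Nuclear sums ran from 14091 to 16587 CPM with no overlap between the lines, whereas mitochondrial sums ran from 12071 to 24099 CPM, both in parental ESCs. The mitochondrial sums rest on the 7 measured members, since the others were listed at 0.

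The 7 measured mitochondrial mRNAs all differed between dishes of a line, and their highest library was not the same for all. mt-Co1 was at 11391 and 6040 CPM in ESC, 6432 and 5257 CPM in ESC + H/F-PRAMEL7_WT, and 5173 and 7874 CPM in ESC + H/F-PRAMEL7_ΔN. mt-Nd1 was at 5510 and 2128, 3117 and 2639, and 2487 and 4192 CPM in the same order. In both genes the first parental library was the highest of all 6, and the second of ESC + H/F-PRAMEL7_ΔN came next. mt-Cytb stood at 2996 and 1602 CPM in ESC, 1877 and 1773 in ESC + H/F-PRAMEL7_WT, and 2116 and 3195 in ESC + H/F-PRAMEL7_ΔN. For mt-Cytb, as for mt-Nd4, mt-Nd5 and mt-Nd6, the last library was the highest, whereas mt-Nd2 peaked in the first parental library. Between the parental libraries the 7 genes differed 1.51- to 2.59-fold, always with library 1 higher (median log2 difference 0.92), while the median over the 77 nuclear members tested was −0.00078 and that over all 12915 genes tested −0.021. In ESC + H/F-PRAMEL7_ΔN library 1 was lower for all 7 (median −0.61), and in ESC + H/F-PRAMEL7_WT it was higher for 6 of 7 (median 0.13), the exception being mt-Nd4 at 877 and 981 CPM. The mitochondrial rRNAs, mt-Rnr1 and mt-Rnr2, which the rule leaves out, summed to 971 and 498 CPM in ESC, 795 and 668 CPM in ESC + H/F-PRAMEL7_WT and 503 and 683 CPM in ESC + H/F-PRAMEL7_ΔN. Within each line their sum was higher in the same library as that of the mRNAs. Between the derived lines the rRNAs were above 0 in ESC + H/F-PRAMEL7_WT (median log2 fold change 0.28, neither called), on the other side of 0 from the mRNAs.

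With 2 libraries a line, none of the 7 mitochondrial members passed the test in any comparison. The test was limma across all genes above 1 CPM in at least 2 libraries, on log2(CPM + 1), and a gene was called at a Benjamini-Hochberg adjusted p under 0.05. For ESC + H/F-PRAMEL7_WT against ESC the log2 fold changes were −0.10 for mt-Nd4, −0.17 for mt-Nd5, −0.17 for mt-Nd6, −0.26 for mt-Nd1, −0.26 for mt-Cytb, −0.32 for mt-Nd2 and −0.51 for mt-Co1, with standard errors of 0.20 to 0.37 and a smallest adjusted p of 0.196. In this comparison 25.0% of all genes tested were called, and 0 of the 7 had an unadjusted p under 0.05, and voom called 0 of them too. For ESC + H/F-PRAMEL7_ΔN against ESC, where 19.9% of all genes were called, they ran from −0.38 for mt-Co1 to 0.44 for mt-Nd6 with a median of 0.24 and a smallest adjusted p of 0.297, and again 0 of 7 had an unadjusted p under 0.05. For ESC + H/F-PRAMEL7_WT against ESC + H/F-PRAMEL7_ΔN, with 20.3% of all genes called, all 7 were below 0 (−0.13 for mt-Co1 to −0.62 for mt-Nd6, median −0.34). mt-Nd5 and mt-Nd6 had unadjusted p-values under 0.05 there and adjusted values of 0.132 and 0.140. Both derived lines share the parental libraries, so their comparisons with ESC are not independent.

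The mitochondrial values depended on which parental library was used. Without parental library 2, all 7 mitochondrial members were called lower in ESC + H/F-PRAMEL7_WT (median log2 fold change −0.72), and without parental library 1 the median was 0.25 with 0 called. For ESC + H/F-PRAMEL7_ΔN the median was 0.60 with 6 called without parental library 1 and −0.20 with 3 called without parental library 2. mt-Nd1 and mt-Nd2 turned from −0.08 and −0.02 with both libraries to 0.60 and 0.55, both called, without the first. When the 2 derived lines were fitted without any parental library, 4 of the 7 were called, a comparison in which no parental value enters and the spread is that of the 4 libraries alone.

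Of the nuclear members, 14 were called higher and 0 lower in ESC + H/F-PRAMEL7_WT than in parental ESCs, and most were not called. Of 81, 77 passed the filter on low values, the exceptions being Cox7b2, Cox8b, Cox8c and Ndufs5. Of those 77, the 14 called higher were 18.2%, against 8.71% of all genes tested, and the 0 called lower stood against 16.3% of all genes. The median log2 fold change was 0.17 against −0.078 over all genes, and 61 of 77 were above 0. For 43 of the 77 both libraries of ESC + H/F-PRAMEL7_WT lay above both parental ones, as did 24.3% of all genes. For 7 both lay below, as did 40.0% of all genes, and for 27 the lines overlapped. Of the genes tested on chromosomes 6 and 11, which hold 4 members each, 31.3% and 45.9% were called lower. Outside these chromosomes 14 of 69 members were called higher (20.3%, against 8.71% of all genes on all chromosomes) and 0 lower. The deposited scaling gave 1125 of all genes higher and 2110 lower, and scaling by the median ratio between libraries gave 1671 and 1489, with 27 nuclear members higher and 0 lower.

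**Figure D3:**
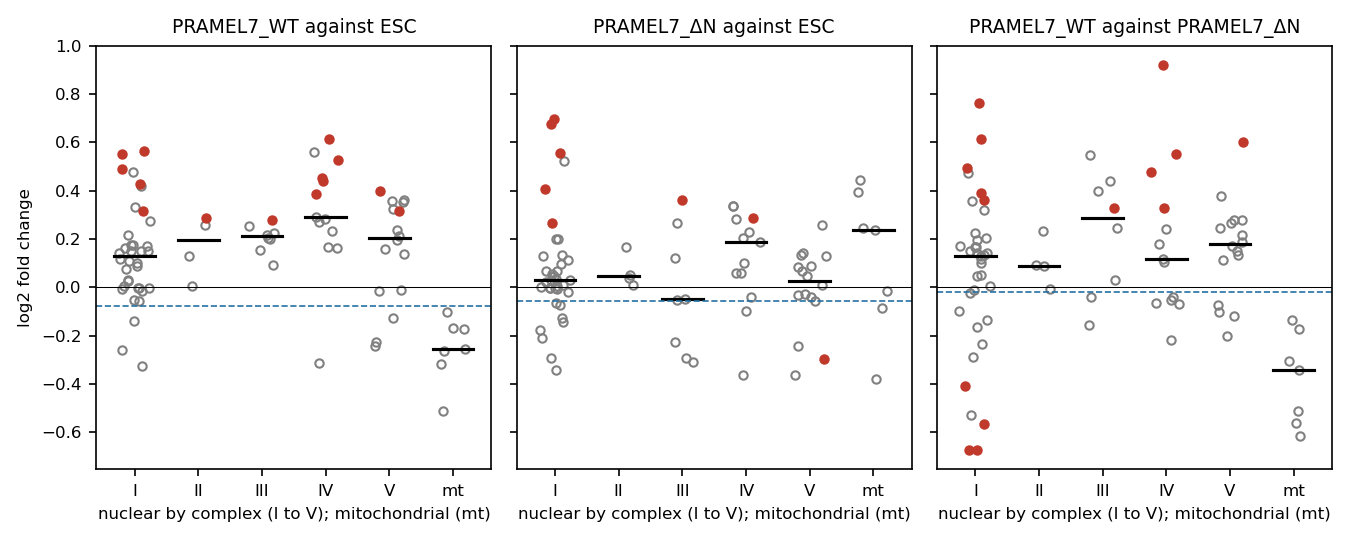
Each point is a member that was tested, with its log2 fold change in the 3 comparisons (panels), grouped as nuclear members of complexes I to V and as mitochondrial members (mt); filled points passed the test, black bars are group medians and the dashed line is the median of all genes tested. Complex IV has the highest nuclear median (0.29) in the left panel, the 4 filled points at the bottom of complex I in the right panel are the members on chromosome 6, and no mitochondrial point is filled.

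Complex IV, cytochrome c oxidase, stood highest, with 5 of 13 members called higher (38.5%, against 8.71% of all genes) and a median of 0.29. Cox7b (chrX:106015700-106022450, GRCm38), a small accessory subunit, was at 125 and 161 CPM in ESC and at 206 and 230 CPM in ESC + H/F-PRAMEL7_WT. Both derived libraries lay above both parental ones, a log2 fold change of 0.61 ± 0.12 (SE, adjusted p = 0.00758). Cox6c, another accessory subunit (chr15:35925886-35938246), was at 108 and 99.4 CPM in ESC and at 144 and 155 CPM in ESC + H/F-PRAMEL7_WT. Its change was 0.53 ± 0.09, with the smallest adjusted p of the members, 0.00406. Cox7a2l, which is known to help join complexes III and IV into supercomplexes, rose from 124 and 122 CPM to 168 and 166 CPM (0.44 ± 0.09, adjusted p = 0.00712). Of its windows 99.5% have a copy, whose longest match lies on chromosome 12. Cox5b and Cox7c were called at 0.45 and 0.39, and 52.3% and 68.3% of their windows have copies. Cox5a, the lowest of the complex among members of at least 10 CPM, was at 0.16 (adjusted p = 0.206). Over the 61 members tested of all complexes that have no such copy, 11 were called higher (18.0%, against 8.71% of all genes) and 0 lower.

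In complex I, 5 of 36 members tested were called higher (13.9%, against 8.71% of all genes), with a median of 0.13. Ndufa4 is counted among the 36 by its symbol. Ndufa11, an accessory subunit of the membrane arm (chr17:56717767-56722141), was at 69.7 and 79.2 CPM in ESC and at 102 and 119 CPM in ESC + H/F-PRAMEL7_WT (0.56 ± 0.12, adjusted p = 0.0106). Ndufs7 and Ndufs8 are core subunits that hold iron-sulphur clusters on the way from NADH to ubiquinone. Ndufs7 (chr10:80249121-80256794) was at 44.7 and 63.4 CPM in ESC and at 72.4 and 85.2 CPM in ESC + H/F-PRAMEL7_WT (0.55 ± 0.17, adjusted p = 0.0392), and Ndufs8 and Ndufa13 were called at 0.43 and 0.49. At the other end, Ndufa1 was at 27.6 and 29.4 CPM against 21.5 and 26.0 CPM, a log2 fold change of −0.26 that did not pass the test (adjusted p = 0.146).

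The remaining complexes gave 1 or 2 called members each, all higher. These were 1 of 4 in complex II (25.0%), 1 of 8 in complex III (12.5%) and 2 of 16 in complex V (12.5%). Of all genes 8.71% were called higher. Sdhb, the iron-sulphur subunit of succinate dehydrogenase, was at 160 and 172 CPM in ESC and at 200 and 205 CPM in ESC + H/F-PRAMEL7_WT (0.29 ± 0.08, adjusted p = 0.0328), while Sdha, the flavin subunit, was at 370 and 349 against 372 and 350 CPM. Sdhc, a membrane anchor of the same complex, was at 0.26 (adjusted p = 0.0544) and, in ESC + H/F-PRAMEL7_ΔN, at 0.17 (adjusted p = 0.208). In complex III, Uqcrc1, a core subunit facing the matrix, was at 444 and 444 against 540 and 539 CPM (0.28 ± 0.09, adjusted p = 0.0394), and all 8 members were above 0, the lowest being Uqcr10 at 0.09. In complex V, Atp5e, the epsilon subunit of the central stalk, was at 120 and 124 against 150 and 172 CPM (0.40 ± 0.11, adjusted p = 0.0244), Atp5j2 was called at 0.32, and Atp5h of the peripheral stalk was at −0.13 (adjusted p = 0.270). The most abundant nuclear member, Atp5b, was at 2977 and 2737 against 3380 and 3172 CPM, which was 0.20 on the log2 scale (adjusted p = 0.141).

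**Figure D4:**
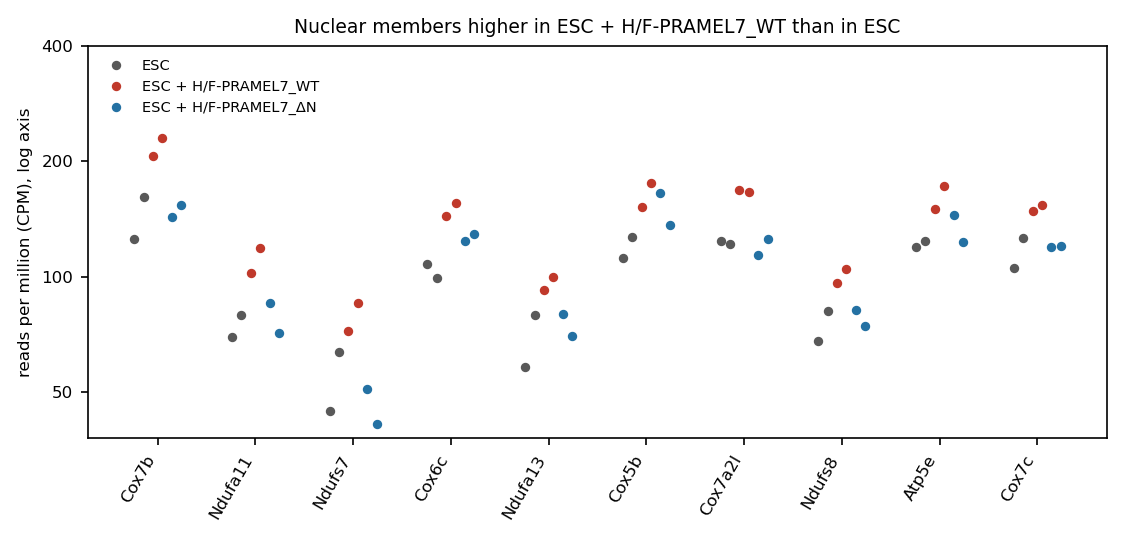
Points give the CPM (log axis) of the 10 nuclear members with the largest log2 fold change among the 14 called higher in ESC + H/F-PRAMEL7_WT than in ESC in each of the 6 libraries, coloured by line and ordered by log2 fold change from Cox7b (0.61) to Cox7c (0.39). In all 10 both ESC + H/F-PRAMEL7_WT libraries lie above both parental libraries.

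These calls depended on both libraries of ESC + H/F-PRAMEL7_WT, since 3 members were called without library 1 and 0 without library 2. Cox6c, Cox7b and Ndufa11 kept their call in 17 of 18 alternative settings, losing it when ESC + H/F-PRAMEL7_WT library 2 was left out. Sdhb kept its call in 10 of 18, Uqcrc1 in 9, and Ndufs7 and Ndufa13 in 8 each. Without parental library 1 Ndufs7 was at 0.30 in place of 0.55 and Ndufa13 at 0.26 in place of 0.49, and neither was called.

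Nuclear members are short transcripts, with a median length of 838 bases against 2939 bases over all coding genes tested. In ESC + H/F-PRAMEL7_WT against ESC, the 1107 other coding genes between the members' quartiles of length (568 to 1251 bases) had a median log2 fold change of −0.0069, with 10.8% called higher and 11.9% lower, beside 0.17, 18.2% and 0% for the members. The 4430 other coding genes between the members' quartiles of GC content (48.6% to 55.3%) had a median of −0.046, with 9.59% higher. In ESC + H/F-PRAMEL7_WT against ESC + H/F-PRAMEL7_ΔN the genes of like length had a median of 0.067, with 13.5% called higher and 4.88% lower. The part of length or GC content in the members' change was not tested.

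The promoters of the nuclear members were searched for the motifs of their known activators, taken as GCGCATGC for NRF1, CCGGAAG for GABPA and AAGATGGCG for YY1, on both strands of the 300 bases from 250 before to 50 after the start in RefSeq (GRCm38.p6). Of 81 nuclear members 68 matched, with 73 promoters. The NRF1 motif was in 13.7% of these and in 2.71% of all 32851 promoters, the GABPA motif in 21.9% and 8.86%, and the YY1 motif in 9.59% of these and in 461 of all. Among the 14 members called higher in ESC + H/F-PRAMEL7_WT, 12 had a promoter, of which 3 held the NRF1 motif, 3 that of GABPA and 2 that of YY1, and among the 63 tested but not called 53 had one, with 7, 13 and 5. Printed here, with the motifs in capitals, are the promoters of Sdhb (chr4:140961021-140961320, plus strand, NRF1 reversed and GABPA), Ndufa11 (chr17:56717512-56717811, plus strand, NRF1 on both strands overlapping) and Ndufs7 (chr10:80249199-80249498, plus strand, YY1), chosen among the called members by the number of motifs and then by the fold change.
Sdhb: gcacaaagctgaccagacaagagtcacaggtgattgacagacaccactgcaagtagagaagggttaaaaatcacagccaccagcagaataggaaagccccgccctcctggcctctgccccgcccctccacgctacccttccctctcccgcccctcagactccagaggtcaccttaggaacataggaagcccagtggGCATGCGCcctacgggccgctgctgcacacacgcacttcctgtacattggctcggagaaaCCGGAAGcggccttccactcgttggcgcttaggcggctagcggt
Ndufa11: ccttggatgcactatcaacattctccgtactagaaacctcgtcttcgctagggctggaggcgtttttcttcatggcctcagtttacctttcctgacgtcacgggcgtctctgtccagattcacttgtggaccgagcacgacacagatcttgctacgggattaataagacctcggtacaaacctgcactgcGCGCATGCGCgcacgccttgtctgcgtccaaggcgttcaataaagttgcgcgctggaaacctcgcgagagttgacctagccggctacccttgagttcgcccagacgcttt
Ndufs7: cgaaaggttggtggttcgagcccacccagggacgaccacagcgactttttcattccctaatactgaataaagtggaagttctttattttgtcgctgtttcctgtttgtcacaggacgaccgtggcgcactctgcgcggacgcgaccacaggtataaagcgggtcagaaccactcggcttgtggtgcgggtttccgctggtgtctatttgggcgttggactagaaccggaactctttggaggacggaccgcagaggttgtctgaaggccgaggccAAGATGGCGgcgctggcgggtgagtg
A match is a description of these letters and not evidence that the factor binds there.

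In ESC + H/F-PRAMEL7_ΔN fewer nuclear members differed from parental ESCs, and most of those that rose share a chromosome. Of 77 tested, 7 were called higher (9.09%, against 6.25% of all genes) and 1 lower (1.30%, against 13.6%), and the median was 0.046 against −0.057 over all genes. For 21 both libraries lay above both parental ones and for 7 below, as did 21.6% and 35.4% of all genes. Scaling by the median ratio gave 12 higher and 0 lower, and 1120 higher and 1357 lower over all genes in place of 807 and 1759. All 4 members on chromosome 6, Ndufa4, Ndufb2, Ndufa5 and Ndufa9, were among the 7. Over the 603 genes tested on that chromosome the median was 0.25, with 30.7% called higher and 17.1% lower. In ESC + H/F-PRAMEL7_WT against ESC the median of this chromosome was −0.26, with 3.65% called higher and 31.3% lower. The 4 members on it had a median of 0.0023 there, with 0 called. In ESC + H/F-PRAMEL7_ΔN, 3 of 69 members outside chromosomes 6 and 11 were called higher and 0 lower. Their 4.35% called higher was below the 6.25% of all genes on all chromosomes.

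Ndufa4 (chr6:11900292-11907497), first assigned to complex I and now known as a subunit of cytochrome c oxidase, was at 177 and 163 CPM in ESC, 158 and 185 CPM in ESC + H/F-PRAMEL7_WT and 272 and 273 CPM in ESC + H/F-PRAMEL7_ΔN. Only the last line stood apart, at 0.68 ± 0.10 over ESC (adjusted p = 0.00172), and this call held in 18 of 18 alternative settings. Ndufb2 (chr6:39592574-39603382), an accessory subunit of complex I, was at 15.0 and 12.6 CPM in ESC, 15.1 and 12.99 in ESC + H/F-PRAMEL7_WT and 20.3 and 25.9 in ESC + H/F-PRAMEL7_ΔN, which was 0.70 ± 0.16 over ESC (adjusted p = 0.0137). Ndufa5 (chr6:24518666-24528013) and Ndufa9 (chr6:126821721-126849136) rose by 0.56 and 0.41 on the log2 scale. All 4 lay above the median of their chromosome, and whether the shift of the chromosome accounts for them was not tested.

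Also called higher were Cox6b1 (207 and 200 CPM in ESC against 244 and 252 CPM, 0.29 ± 0.08, adjusted p = 0.0344) and Uqcrb at 0.36, of which 88.3% of the windows have copies. The called decrease was Atp5g1 (chr11:96068852-96075670), 1 of 3 genes for the c ring of the ATP synthase, at 327 and 316 CPM in ESC against 283 and 243 CPM (−0.30 ± 0.09, adjusted p = 0.0497). Over the 1102 genes tested on chromosome 11 the median was −0.33 in this comparison and −0.36 for ESC + H/F-PRAMEL7_WT against ESC, with 39.3% and 45.9% called lower, and the 4 members there (Atp5g1, Atp5h, Uqcr10 and Uqcrq) had medians of −0.29 and 0.04. Atp5j, the highest of complex V in this comparison, was at 0.26 (adjusted p = 0.150). The Atp5g1 call held in 4 of 18 alternative settings.

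**Figure D5:**
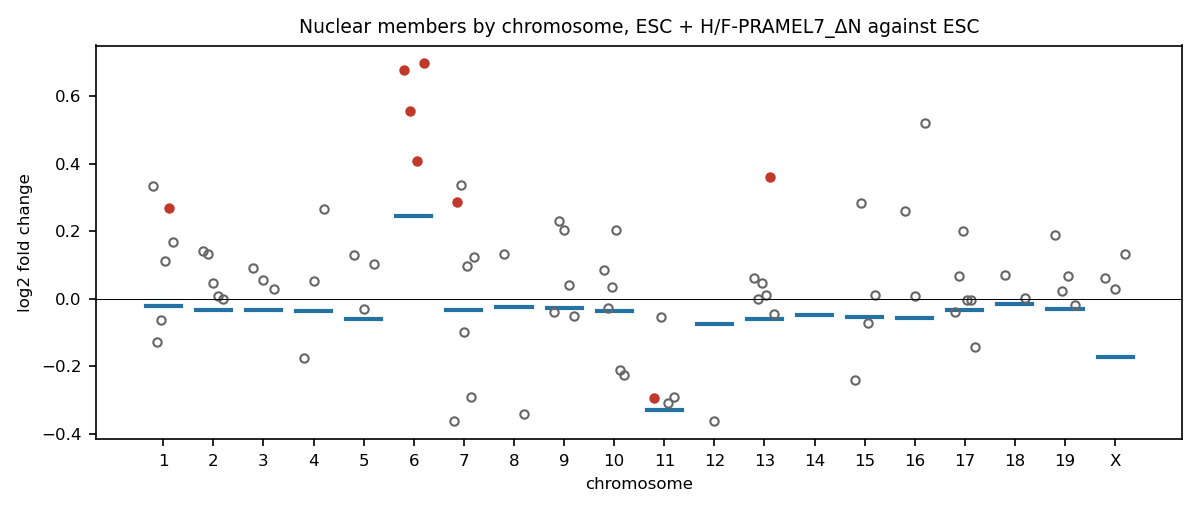
Points are the tested nuclear members by chromosome, with their log2 fold change in ESC + H/F-PRAMEL7_ΔN against ESC, filled where called, and the blue bar is the median of all genes tested on the chromosome. The 4 members on chromosome 6 (0.41 to 0.70) lie above that chromosome's median of 0.25, which is itself the highest, and chromosome 11 has the lowest median, −0.33.

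The direct comparison of the 2 derived lines, which also differ in the level of Pramel7 RNA, gave 11 nuclear members higher in ESC + H/F-PRAMEL7_WT (14.3%, against 10.9% of all genes). It gave 4 lower (5.19%, against 9.44%), with a median of 0.14 against −0.017 over all genes. The shares called were close to those of the 1107 other coding genes of like length, 13.5% and 4.88%. For 39 members the libraries of ESC + H/F-PRAMEL7_WT both lay higher and for 14 lower, as did 33.2% and 35.6% of all genes. The 4 lower ones were the members on chromosome 6, where all genes had a median of −0.39. Of the 11, Ndufs7 differed most among members above 10 CPM, at 72.4 and 85.2 CPM in ESC + H/F-PRAMEL7_WT against 50.9 and 41.3 CPM in ESC + H/F-PRAMEL7_ΔN (0.76 ± 0.17, adjusted p = 0.0126). Ndufb7, an accessory subunit of complex I, was at 75.2 and 92.7 against 59.9 and 48.9 CPM (0.62 ± 0.18, adjusted p = 0.0417). Atp5g2, with 100% of its windows in a copy, was at 86.0 and 90.6 against 62.3 and 53.6 CPM (0.60 ± 0.15, adjusted p = 0.0200). Cox7b (0.55), Ndufa11 (0.50), Cox7a2l (0.48), Ndufc2 (0.39), Ndufs8 (0.36), Uqcrc1 (0.33) and Cox7c (0.33) were called in the same direction. Uqcrq, the highest of complex III at 0.55, did not pass the test (adjusted p = 0.0651). The 11 became 29 when the 2 lines were fitted alone and 0 without either library of ESC + H/F-PRAMEL7_WT.

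Several subunits of complex IV and complex V exist as paralogues with different tissue ranges. Among the isoforms known from heart, muscle, testis or other tissues, Cox8b was listed at 0 in every library, Cox7b2 and Cox8c had at most 10 and 11 reads, and Cox6a2 1 to 24 reads. Cox6a2 was at 0.310 and 0.597 CPM in ESC, 1.22 and 1.05 CPM in ESC + H/F-PRAMEL7_WT and 0.201 and 0.0528 CPM in ESC + H/F-PRAMEL7_ΔN, and was called between the derived lines (0.92 ± 0.20, adjusted p = 0.0109). That value is on the log2(CPM + 1) scale, and the last library held 1 read. Cox7a1 (5.52 to 7.97 CPM), Cox6b2 (11.8 to 19.9 CPM) and Ndufa4l2 (5.42 to 11.8 CPM) were measurable and not called in any comparison. The ubiquitous Cox6a1 (155 to 233 CPM), Cox6b1 (200 to 252 CPM), Cox7a2 (136 to 162 CPM), Cox7b and Cox8a (124 to 176 CPM) stood well above their counterparts in each library. The 3 genes for the c subunit ranked as Atp5g3 (322 to 480 CPM), Atp5g1 (243 to 327 CPM) and Atp5g2 (53.6 to 90.6 CPM), by reads and not per length.

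Copies also overlap nuclear members with few reads. Ndufs5, a subunit of complex I, had 6 to 16 reads in a library and Atp5l, of the ATP synthase, 29 to 47 reads. Of the windows of Ndufs5 95.1% have a copy on chromosome 16, 504 bases at 99.6% identity at chr16:42955560-42956063, where BC002163 held 238 to 352 reads. Over the 318 coding bases both differ at 2, and both differences lie in the stretch shown in capitals, which is read without an exon junction from chr4:123715975-123716034 (minus strand) and from chr16:42955676-42955735 (plus strand).
Ndufs5: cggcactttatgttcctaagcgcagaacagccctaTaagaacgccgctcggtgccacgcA
copy of Ndufs5: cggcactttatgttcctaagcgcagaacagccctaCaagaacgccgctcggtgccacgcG
For Atp5l, 84.0% of the windows have a copy, and it was not called in any comparison. Ndufs5 did not pass the filter on low values and was not tested. Of the nuclear members tested, 16 have windows with a copy, and not all of these have few reads. Atp5h, with 94.3% of its windows in a copy, was at 229 to 261 CPM over the libraries. Cox7a2l with 99.5% was at 114 to 168 CPM, and Atp5g2 with 100% at 53.6 to 90.6 CPM.

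Other genes of the pathway were described from lists. Of 45 assembly factors tested in ESC + H/F-PRAMEL7_WT against ESC, 0 were called higher and 11 lower (24.4%, against 16.3% of all genes), with a median of −0.13. Taco1, which is needed to translate mt-Co1, was at 20.9 and 19.6 CPM in ESC, 10.5 and 9.25 CPM in ESC + H/F-PRAMEL7_WT and 13.3 and 13.04 CPM in ESC + H/F-PRAMEL7_ΔN, lying on chromosome 11. It fell in both derived lines, to −0.97 ± 0.13 (adjusted p = 0.00157) and −0.58 ± 0.13 (adjusted p = 0.0129). Sdhaf3 and Sdhaf4, which help assemble complex II, were lower in ESC + H/F-PRAMEL7_WT at −0.75 and −0.70. In ESC + H/F-PRAMEL7_ΔN 0 were higher and 4 lower (8.89%, against 13.6% of all genes).

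The list for replication, transcription and RNA stability of the mitochondrial genome gave 0 higher and 9 lower of 29 tested in ESC + H/F-PRAMEL7_WT (31.0% lower, against 16.3% of all genes), and 1 higher and 6 lower in ESC + H/F-PRAMEL7_ΔN (20.7% lower, against 13.6%). Grsf1, a factor of mitochondrial RNA granules, was at 214 and 169 CPM in ESC, 114 and 114 CPM in ESC + H/F-PRAMEL7_WT and 101 and 114 CPM in ESC + H/F-PRAMEL7_ΔN (−0.73 ± 0.12 and −0.82 ± 0.12, adjusted p = 0.00339 and 0.00183). Tefm, the elongation factor of the mitochondrial polymerase, fell to −0.79 and −0.91, and Polg2, the accessory subunit of the mitochondrial DNA polymerase, to −0.66 and −0.78, both on chromosome 11. Fastkd1 was lower in ESC + H/F-PRAMEL7_WT (−0.82, adjusted p = 0.00209) and at −0.26 in ESC + H/F-PRAMEL7_ΔN (adjusted p = 0.153). Ssbp1, the mitochondrial single-strand binding protein on chromosome 6, was at −0.31 and 0.30.

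Of 13 nuclear regulators tested, 2 were called higher and 0 lower in ESC + H/F-PRAMEL7_WT (15.4% higher, against 8.71% of all genes), and 1 and 0 in ESC + H/F-PRAMEL7_ΔN (7.69%, near the 6.25% of all genes). Ppargc1b, a coactivator of respiratory genes, was at 4.54 and 3.96 CPM in ESC, 9.82 and 7.54 CPM in ESC + H/F-PRAMEL7_WT and 3.71 and 2.85 CPM in ESC + H/F-PRAMEL7_ΔN (0.88 ± 0.18 for ESC + H/F-PRAMEL7_WT, adjusted p = 0.00936). Myc rose in ESC + H/F-PRAMEL7_ΔN alone of the derived lines, from 46.2 and 40.5 CPM to 76.3 and 73.0 CPM (0.77 ± 0.10, adjusted p = 0.00109), and differed between the derived lines (−0.78, adjusted p = 0.000957). Among subunits and electron carriers that the naming rule leaves out, 3 were higher and 2 lower of 11 tested in ESC + H/F-PRAMEL7_WT (27.3% and 18.2%, against 8.71% and 16.3% of all genes). Cyct, the testis form of cytochrome c, was at 7.58 and 8.40 CPM in ESC, 3.44 and 2.48 CPM in ESC + H/F-PRAMEL7_WT and 1.30 and 1.27 CPM in ESC + H/F-PRAMEL7_ΔN (−1.19 and −1.97, both called). The somatic Cycs, on chromosome 6, was at 67.3 and 72.8, 64.0 and 55.2, and 94.4 and 92.7 CPM in the same order, called in ESC + H/F-PRAMEL7_ΔN (0.41, adjusted p = 0.0197). Etfb, part of the flavoprotein that feeds electrons from fatty acid oxidation into the chain, was at 13.7 and 15.5, 23.2 and 27.1, and 15.2 and 14.5 CPM, called in ESC + H/F-PRAMEL7_WT (0.74, adjusted p = 0.00503). Cox4i2, an isoform of complex IV known from lung, was at 3.30 and 5.53, 1.77 and 2.31, and 4.01 and 3.64 CPM, and was lower in ESC + H/F-PRAMEL7_WT than in ESC (−0.81, adjusted p = 0.0255). Etfdh, which passes electrons from the flavoprotein of Etfb to ubiquinone, was at 15.1 and 11.4, 9.92 and 12.4, and 16.6 and 19.5 CPM, and was lower in ESC + H/F-PRAMEL7_WT than in ESC + H/F-PRAMEL7_ΔN (−0.65, adjusted p = 0.0263).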

How the data were processed

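RNA-seq values of 6 libraries from polyadenylated RNA (unstranded, single-end) were used. CHD4 ChIP and input samples were not analysed here. According to the methods, rRNA reads were filtered out (SortMeRNA), adapters and low-quality ends clipped (Trimmomatic) and the rest aligned to mm10 (STAR). A custom pipeline of the authors turned exon coverage into RPKM, and they deposited the RPKM of each library in 1 table. The submitters' processing notes name Bowtie2 2.3.4.3 and Subread 1.4.6-p4. Deposited comparisons (fold changes, p-values) were not used.

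RPKM was multiplied by the gene span in GENCODE vM21 (GRCm38) and by 1 constant for all libraries, giving CPM with the authors' scaling. Of 50978 rows, 176 with repeated or date-like names, 2796 without a match and 66 with several were left out, except Atp5o, whose span was chosen so that reads came out whole. Values up to 20 reads were whole within 0.1 in 98.0% to 98.4% of cases, which recovers the reads. Depth was 18260932 to 19862009 reads, and precision beyond it rests on 2 dishes a line. Genes above 1 CPM in 2 libraries (12915) were tested on log2(CPM + 1) by limma (version 3.58.1, R 4.3.3), with the variance trended on the mean, all libraries in 1 fit and Benjamini-Hochberg adjustment. voom on recovered reads called 1107 genes higher and 2028 lower for ESC + H/F-PRAMEL7_WT against ESC. The fit was tested on simulated data. Copies were sought with blastn 2.17.0+ on principal transcripts. Tables used python 3.11.15, numpy 2.4.6, pandas 2.3.3 and matplotlib 3.10.9.

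Members and lists were chosen with earlier results of these data known. Named were all mitochondrial members, the highest and lowest nuclear member of each complex in each comparison above 10 CPM, the isoforms, and any member or list gene called with an absolute log2 fold change above 0.58. Results of 1 called member are not reported here by name. Other called members, Atp5b, Atp5a1, Ndufs5, Ndufa5, Ndufa9, BC002163 and the loci of copies were named after their values were seen. Alternatives were other pseudocounts, filters, scalings, fits and leaving out each library.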

Additional observations from a re-analysis of the deposited data

Results flagged for a closer look

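The mitochondrial rRNAs lie outside the naming rule and were present although ribosomal reads had been removed by the authors. The lowest of the 6 libraries held 216 CPM of mt-Rnr1 (ESC + H/F-PRAMEL7_ΔN library 1) and 282 CPM of mt-Rnr2 (parental library 2). Both lay far above 0 in the other libraries as well.

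Rows of nuclear copies of mitochondrial DNA held reads in every library, with a lowest summed value of 9.00 CPM. BC002163, at the locus of the near-identical copy of Ndufs5, had at least 238 reads in each library, against at most 16 for Ndufs5 itself. How many of these reads came from the copies and how many from the members was not tested.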

How the results depend on the processing

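Across 159 values of named genes in the comparisons, 52 were called and 18 alternatives were run. Each line had 2 dishes, and each transgene 1 line. For ESC + H/F-PRAMEL7_WT against ESC, the 14 nuclear members called higher became 5 without a filter, 5 without the variance trend, 27 with median-ratio scaling, 6 on unconverted RPKM and 1 with a log2 fold limit of 0.58 added, and ranged from 0 to 29 when a library was left out. The count lower ranged from 0 to 1, the mitochondrial count from 0 to 7, and the mitochondrial minus the nuclear median from −0.86 to 0.077 (−0.43 with all libraries). For ESC + H/F-PRAMEL7_ΔN against ESC, the 7 higher became 3, 4, 12, 2 and 2 under the same settings and 4 with the compared lines fitted alone, and ranged from 1 to 15. The 1 lower became 0 with a pseudocount of 0.1, without a filter, above 10 CPM, with the compared lines alone, with median-ratio scaling, with the total of nuclear genes, without the trend, on RPKM, with voom and with the fold limit, and ranged from 0 to 8. The mitochondrial count ranged from 0 to 6 and the difference of medians from −0.24 to 0.60. When a library was left out, mt-Nd1 ranged from −0.77 to 0.60 and mt-Nd2 from −0.58 to 0.55, the highest values being those without parental library 1, where both reversed and were called. For ESC + H/F-PRAMEL7_WT against ESC + H/F-PRAMEL7_ΔN, the 11 higher became 2 without a filter, 29 with the compared lines alone, 4 without the trend, 1 on RPKM and 4 with the fold limit, and ranged from 0 to 29. The 4 lower became 2 on RPKM and 2 with the fold limit, and ranged from 1 to 7. The mitochondrial count became 4 with the compared lines alone and ranged from 0 to 4. Over all genes, 622 were higher and 1275 lower for ESC + H/F-PRAMEL7_WT against ESC without a filter, 263 and 447 without its library 1, and 216 and 497 without its library 2. The cause of these changes was not tested.

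Replicate numbers were not used as pairs, and deviations of same-numbered libraries correlated at 0.21, −0.25 and −0.10 between the lines. With 2 libraries a line, swapping the numbers of 1 line flips the sign of its values. The check therefore cannot tell whether libraries of different lines were handled together. With a replicate block, 11 nuclear members were higher in ESC + H/F-PRAMEL7_WT and 5 higher and 0 lower in ESC + H/F-PRAMEL7_ΔN than in ESC, and 10 were higher and 4 lower between the derived lines, with 0 mitochondrial members called. A crossed pairing, chosen after seeing the data, gave 28 nuclear and 1 mitochondrial, 11 higher and 5 lower with 2 mitochondrial, and 21 higher with 3 mitochondrial members called. Over all genes it gave 1616 higher and 2817 lower for ESC + H/F-PRAMEL7_WT against ESC, in place of 1125 and 2110.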

Other observations

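The proteins of the mitochondrial ribosome, which translates the mitochondrial members, were counted beside the nuclear subunits. Of 77 tested, 1 was called higher and 7 lower in ESC + H/F-PRAMEL7_WT against ESC (1.30% and 9.09%, against 8.71% and 16.3% of all genes, median log2 fold change −0.0052), and 3 higher and 13 lower in ESC + H/F-PRAMEL7_ΔN against ESC (3.90% and 16.9%, against 6.25% and 13.6%, median −0.11). Set against each other, the derived lines gave 10 with more and 3 with less RNA in ESC + H/F-PRAMEL7_WT (12.99% and 3.90%, against 10.9% and 9.44%, median 0.061). The nuclear subunits had medians of 0.17, 0.046 and 0.14 in the same comparisons, and the difference between the lists was not tested.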
